A study of Mus musculus with 4 samples.

Results

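Collagen chains are the gene products that wind around each other to form collagen molecules. They were taken here as every gene probe whose accession belongs to a gene named by the pattern Col, a number, the letter a and a number. On these arrays 67 probes belonged to 44 such genes, out of 56605 gene probes and 22916 genes with a symbol. Each gene was followed through its brightest probe. The 44 chains comprised 11 fibrillar chains, 6 basement membrane type IV chains, 2 multiplexins, 6 type VI chains, 1 anchoring fibril chain, 3 short chain network chains, 9 fibril-associated chains, 4 transmembrane chains and 2 further chains.

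RNA came from dispersed pancreatic islet cells of male C57BL/6 mice aged 60 weeks. The mice were 4 littermates, no genetic change is given for them, and their islets were freed from the pancreas with collagenase P and picked by hand. The cells were held for 24 h with a peptide at 10 μM. MOTS-c, a peptide read from within a ribosomal RNA gene of the mitochondrial genome, was given to 2 samples (named MOTS-c replicates 2 and 3), and a scrambled peptide was given to the other 2 (scrambled replicates 1 and 2). The comparison asks which transcripts of aged islet cells differ after MOTS-c. No label ties a mouse to an array, so p-values measure only the spread between these 4 samples.

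Collagen chains assemble through a rod-like helix built from repeats that place glycine at regular steps, and many collagens mix chains from different genes. Fibrillar collagens bear tension, type IV collagens form the sheet of basement membranes, type VI collagens form beaded filaments close to cells, and fibril-associated collagens decorate fibril surfaces. In the islet, basement membrane lies mainly around capillaries and is laid down largely by endothelial cells, and interstitial collagen lies at the rim of the islet and is made by fibroblasts and stellate cells.

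The arrays were alike in quality. Between 61.6% and 65.0% of gene spots were well above background on each array, no gene spot was saturated, and all 4 arrays lay on 1 slide. Insulin probes were far above background on all arrays, as the islet label requires. None of the 7 probes for Y-linked genes was well above background on any array, and the Xist probe was on all 4 arrays, so these measurements go against the label of male mice in both groups. A spot counts as well above background when the scanner software sets that flag.

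In these islet cells 21 of the 44 collagen chains were well above background on all 4 arrays, or 47.7%, against 64.5% of all genes with a symbol. A further chain, Col5a3, was above background on 3 arrays and not on scrambled replicate 1. Col2a1, the chain of cartilage collagen, and Col4a5 were above background on scrambled replicate 1 alone. The other 20 chains were not well above background on any array. No chain was above background only in the MOTS-c samples or only on both scrambled arrays.

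The chains that did not rise above background included the main chains of interstitial tissue. Col1a1, which with Col1a2 builds collagen I, gave a raw spot signal of 1.19, 1.33, 1.24 and 1.12 times its local background on the 4 arrays, the scrambled pair first. Col3a1, the chain of reticular fibers, gave 0.886, 1.16, 0.923 and 0.939 times background on the same arrays. Col5a2, the usual partner of Col5a1 in collagen V, gave 1.08, 1.5, 1.35 and 1.13 times background. None of these probes carried the flag on any array, which does not show that the transcripts were absent. The ratio alone does not set the flag, since Col5a3 carried it on MOTS-c replicate 3 at 1.09 times background.

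Pairs of chains that assemble together were therefore often seen in part. Col1a2 was measured and Col1a1 was not, and Col8a2 was measured and Col8a1 was not. In collagen IV the Col4a1 and Col4a2 chains of the common network were above background on all arrays, while Col4a3, Col4a4 and Col4a6 were on none. In collagen VI the 3 classical chains Col6a1, Col6a2 and Col6a3 were above background on all arrays, and the Col6a4, Col6a5 and Col6a6 chains were on none. In collagen IX, Col9a2 and Col9a3 were measured and Col9a1 was not. Of the multiplexins, which carry an endostatin domain, Col18a1 was measured and Col15a1 was not.

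Over the 22 chains that were below the filter of at least 2 arrays, the raw spot signal was 0.667 to 1.75 times local background, with a median of 1.17. Over the 21 chains above background on all arrays it was 1.42 to 122 times background, with a median of 5.23. The top of that range was Col6a3. Such ratios depend on how well each probe binds, so they describe detection and rank no chain above another. The 22 chains that could be tested were spread unevenly over the brightness of all tested probes, with 9, 9, 3 and 1 chains in 4 equal groups of probes from dimmest to brightest.

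**Figure D1:**
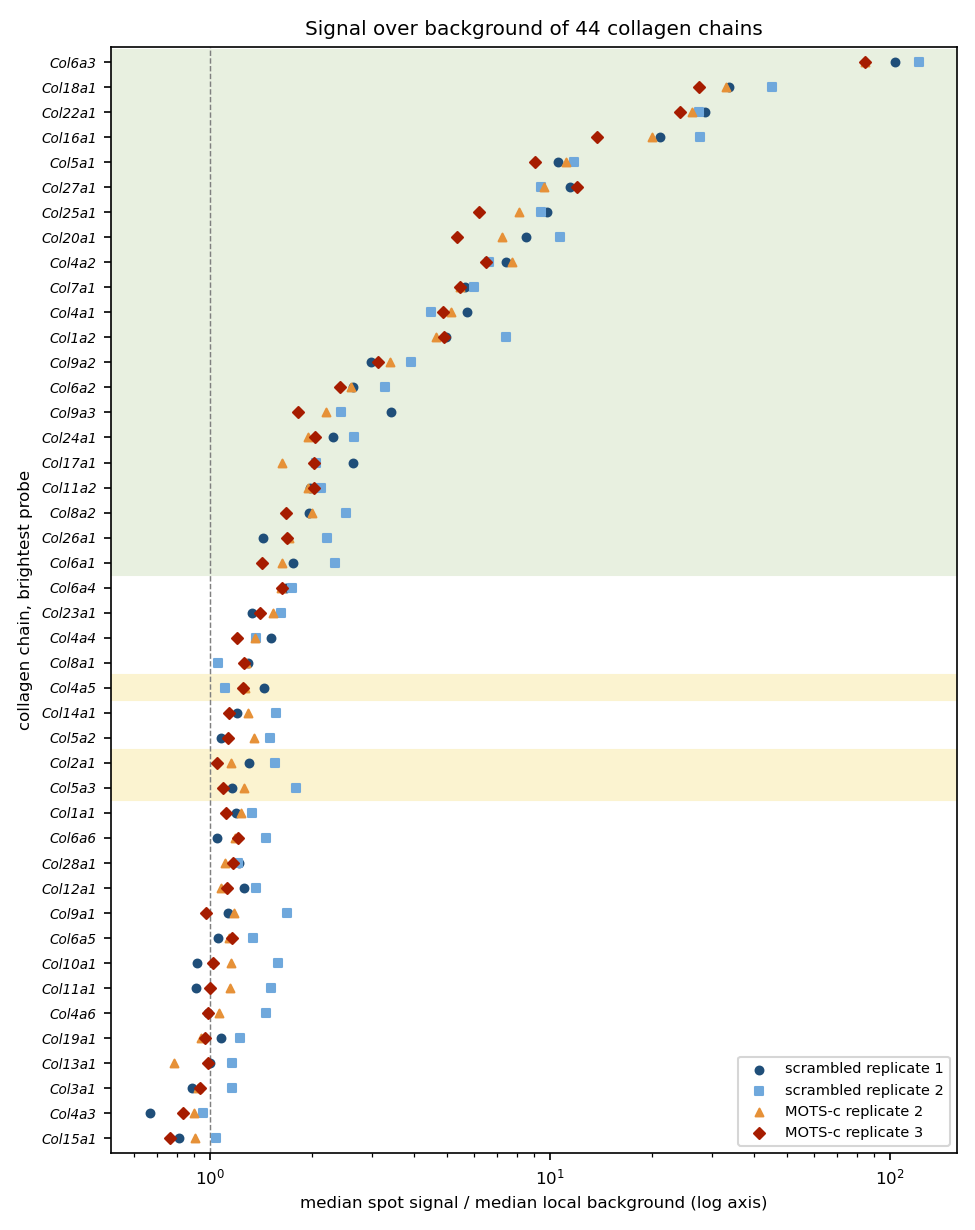
Raw median spot signal divided by median local background (log axis) for the brightest probe of each of the 44 collagen chains (rows), 1 marker per array. Green bands mark the 21 chains well above background on all 4 arrays and yellow bands mark the chains above background on 1 or 3 arrays. Unshaded chains were above background on none and lay at or under 1.75.

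The 22 chains above background on at least 2 arrays were compared between the peptides on log2 normalized signal. No chain differed at an adjusted p under 0.05 in limma, and neither did any of the 35087 probes tested (0.0%), with a smallest adjusted p of 0.474 over all probes. At an unadjusted p under 0.05, 3 chains passed, against 7.85% of all probes and 8.61% of the brightest probes of genes, and the methods' t-test passed 2 chains at that limit. With a change of at least 1.5-fold also asked for, 1 chain was lower with MOTS-c (Col9a3) and 0 were higher, where 2.43% of all probes were called lower and 1.1% higher. Over the brightest probes of all genes these shares were 3.01% and 0.995%. Calls also changed when an array was left out. Such fits leave 1 array in a group, so their calls are not read as results about the chains.

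Most of the differences pointed the same way. The log2 difference, MOTS-c minus scrambled, was below 0 for 20 of the 22 chains, where 47.1% of all probes and 50.4% of the brightest probes of genes were below 0. The median log2 difference of the 22 chains was -0.29, beside 0.01 over all probes tested. The highest MOTS-c value was under the lowest scrambled value for 9 chains (18.6% of all probes, 22.7% of brightest probes). The order was the opposite for 1 chain (19.4% and 19.8%). Of the 9 chains, Col16a1 and Col22a1 were only narrowly apart. Without MOTS-c replicate 3 the median was -0.16 and 17 of the 22 chains were below 0. The 9 chains became 15 without scrambled replicate 1 and 16 without MOTS-c replicate 2, where such a separation holds for 35.2% and 38.3% of all probes.

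The spread between arrays of a group was of the order of the difference between groups. The comparison is loose, since a difference of single arrays varies more than a difference of group means. The median absolute difference between the 2 scrambled arrays was 0.23 on the log2 scale over the 22 chains, and that between the 2 MOTS-c arrays was 0.38. The median absolute difference between the group means was 0.30, above the scrambled value and below the MOTS-c value. The same 3 values over all probes tested were 0.16, 0.19 and 0.14, so all 3 were larger for the collagen chains.

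Measured against each chain's own mean over the 4 arrays, the chains lay at a median of 0.12 on scrambled replicate 1, 0.24 on scrambled replicate 2, 0.00 on MOTS-c replicate 2 and -0.23 on MOTS-c replicate 3. All probes together lay between -0.01 and 0.02 on every array. MOTS-c replicate 3 was the lowest array for 14 of the 22 chains, against 33.3% of all probes. Scrambled replicate 2 was the highest array for 13 chains, against 26.8% of all probes. Over the brightest probes of genes these shares were 38.0% and 29.2%. Leaving out scrambled replicate 2 left the median log2 difference of the chains at -0.28, and leaving out MOTS-c replicate 3 brought it to -0.16.

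**Figure D2:**
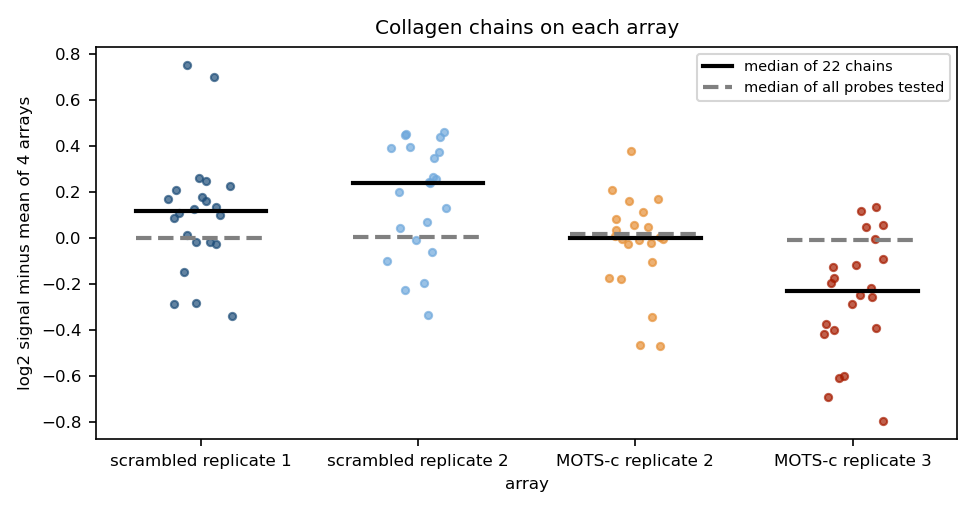
Log2 normalized signal of the 22 tested collagen chains on each array, less the chain's mean over the 4 arrays (vertical axis), with 1 point per chain. Solid bars are the medians of the chains (0.12, 0.24, 0.00 and -0.23) and dashed bars are the medians of all probes tested, which lie near 0.

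Type VI chains lay lower on both MOTS-c arrays in all 3 measured members. Col6a1, Col6a2 and Col6a3 build the beaded filaments that link cells to the interstitial matrix. The log2 signal of Col6a1 was 5.26 and 5.44 with the scrambled peptide and 5.05 and 4.45 with MOTS-c. That of Col6a2 was 5.92 and 6.03 against 5.79 and 5.42. That of Col6a3, which adds the large globular part of the filament, was 11.95 and 11.90 against 11.59 and 11.64. For none of the 3 chains did the groups overlap.

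The log2 difference was -0.60 ± 0.24 (SE, 2 arrays per group) for Col6a1, a 1.52-fold lower mean with an unadjusted p of 0.0542 and an adjusted p of 0.647 in limma. It was -0.37 ± 0.17 for Col6a2 (adjusted p = 0.696) and -0.31 ± 0.12 for Col6a3 (adjusted p = 0.646). Scaling each array to its 75th percentile instead brought Col6a1 to an unadjusted limma p of 0.0253, and without MOTS-c replicate 2 its difference was -0.90. Without MOTS-c replicate 3 the differences of Col6a1 and Col6a2 were -0.31 and -0.18. Col6a3 differed from its partners in pattern, since its 2 MOTS-c arrays were close to each other and the lower value of Col6a1 and Col6a2 was on MOTS-c replicate 3.

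The promoters of these 3 chains are shown because their probes lay lower together. They are the 250 bases before the RefSeq transcript start (GRCm38.p6, minus strand, 5′ to 3′), where the array design itself is annotated on mm9. Col6a2 and Col6a1 are neighbors on chromosome 10 and Col6a3 is on chromosome 1. Capitals mark a GC box (GGGCGG, or CCGCCC on the other strand), a CCAAT box (CCAAT or ATTGG) or a TATA box (TATAAA or TTTATA). The windows are chr10:76726045-76726294 for Col6a1, chr10:76623631-76623880 for Col6a2 and chr1:90843972-90844221 for Col6a3.
Col6a1: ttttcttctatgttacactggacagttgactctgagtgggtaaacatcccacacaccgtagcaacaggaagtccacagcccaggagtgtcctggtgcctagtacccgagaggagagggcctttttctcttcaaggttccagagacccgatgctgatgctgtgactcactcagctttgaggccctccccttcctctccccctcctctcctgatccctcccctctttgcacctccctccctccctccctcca
Col6a2: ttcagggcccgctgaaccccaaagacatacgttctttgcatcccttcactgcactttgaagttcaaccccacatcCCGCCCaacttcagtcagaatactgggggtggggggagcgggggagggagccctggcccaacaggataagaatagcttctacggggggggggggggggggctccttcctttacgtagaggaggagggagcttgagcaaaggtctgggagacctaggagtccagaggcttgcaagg
Col6a3: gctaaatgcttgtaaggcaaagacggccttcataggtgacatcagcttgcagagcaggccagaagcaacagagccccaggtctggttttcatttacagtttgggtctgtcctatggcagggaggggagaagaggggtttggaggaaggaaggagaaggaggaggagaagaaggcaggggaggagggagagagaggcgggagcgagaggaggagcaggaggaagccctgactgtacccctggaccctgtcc
The Col6a2 window shown held 1 GC box, and the Col6a1 and Col6a3 windows held none of these motifs. Col6a2 has a second RefSeq start, whose window is not shown and held 3 GC boxes. Promoter windows were given for 35 of the 44 collagen genes, in 38 windows. A GC box stood in 57.9% of the 38 collagen windows and in 32.7% of all 32851 windows of the same length. A CCAAT box stood in 34.2% and 33.8%, and a TATA box in 13.2% and 12.4%. These are matches of letters, and none was set against the array differences.

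Fibril-associated chains had the lowest median difference among the classes with 3 or more tested chains. It was -0.58 over 5 tested of 9 chains, all 5 were below 0, and 4 were lower without overlap of the groups. Of these 4, Col16a1 and Col22a1 were only narrowly apart. Over the brightest probes of genes, 50.4% were below 0 and 22.7% were lower without overlap. Col9a3, a chain of the collagen IX that coats cartilage-type fibrils, was 6.23 and 5.97 with the scrambled peptide and 5.18 and 4.73 with MOTS-c. Every MOTS-c value lay under every scrambled value. The probe was dim, at 3.41 and 2.43 times background with the scrambled peptide and 2.20 and 1.82 with MOTS-c. A further probe of Col9a3 was above background on scrambled replicate 2 alone. The log2 difference of the brightest probe was -1.14 ± 0.21 (SE), or 2.21-fold lower, with an unadjusted p of 0.0034 and an adjusted p of 0.474 in limma.

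Col9a3 was the only chain past both limits in the comparison as reported. It stayed past them in the other settings run, except with the normexp background correction, where the log2 difference was -0.40. Its partner Col9a2 did not follow it. Col9a2 was 6.51 and 6.57 with the scrambled peptide and 6.51 and 6.52 with MOTS-c, with a log2 difference of -0.03 ± 0.12. The groups overlapped for Col9a2, and the difference between the 2 chains was not tested.

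The other 3 fibril-associated chains lay lower on both MOTS-c arrays with smaller or more variable differences. Col16a1 was 9.405 and 9.719 with the scrambled peptide and 9.384 and 8.576 with MOTS-c. Col22a1 was 9.700 and 9.955 against 9.699 and 9.399. The groups of Col16a1 and Col22a1 were thus only narrowly apart, and their lack of overlap carries little weight. Col20a1 was 8.258 and 8.381 against 8.065 and 7.421. Col16a1 had a log2 difference of -0.58 ± 0.31, Col20a1 of -0.58 ± 0.25 and Col22a1 of -0.28 ± 0.17. For each of them MOTS-c replicate 3 was the lowest array. Without MOTS-c replicate 2, Col16a1 and Col20a1 passed both limits at -0.98 and -0.89, and without MOTS-c replicate 3 they were at -0.18 and -0.26. Without MOTS-c replicate 3 and without scrambled replicate 2, Col22a1 was at -0.13 and -0.15. Col22a1 also had a further tested probe, at 7.72 and 7.93 with the scrambled peptide and 7.24 and 6.63 with MOTS-c. Its log2 difference was -0.89 ± 0.24 with an unadjusted p of 0.0164 and an adjusted p of 0.539 in limma, the same direction as the brightest probe and larger.

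Fibrillar chains were mixed. Over 6 tested of 11 chains the median log2 difference was -0.07, 4 were below 0 and 2 above. Col11a2, which lies inside cartilage fibrils, was the only chain higher on both MOTS-c arrays, with 4.97 and 5.03 with the scrambled peptide and 5.63 and 5.39 with MOTS-c. Its difference was 0.51 ± 0.14, with an unadjusted p of 0.0177 and an adjusted p of 0.539 in limma. Without MOTS-c replicate 3 it was 0.64 and passed both limits, and with the normexp correction it was 0.07.

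Col24a1, a minor fibrillar chain, went the other way. It was 5.88 and 6.24 with the scrambled peptide and 5.31 and 5.68 with MOTS-c, without overlap. The difference was -0.56 ± 0.21, with an unadjusted p of 0.0461 and an adjusted p of 0.625 in limma. It passed both limits at -0.74 without scrambled replicate 1 and at -0.75 without MOTS-c replicate 3, and it was at -0.38 and -0.37 without scrambled replicate 2 and MOTS-c replicate 2.

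Col1a2, the measured chain of collagen I, was 6.90 and 7.50 with the scrambled peptide and 6.94 and 6.85 with MOTS-c. Its groups overlapped, since only scrambled replicate 2 stood above the rest. The difference was -0.30 ± 0.23 (adjusted p = 0.801 in limma), and it depended on which scrambled array was kept. Without scrambled replicate 1 it was -0.60 and passed both limits, and without scrambled replicate 2 it was -0.0024.

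Col5a1, which sets the width of collagen I fibrils, was 8.40 and 8.30 with the scrambled peptide and 8.48 and 8.06 with MOTS-c. Col5a3, an alternative chain of collagen V, was 3.98 and 4.53 against 4.24 and 4.33, where scrambled replicate 1 was not above background. Both chains overlapped between groups. Their differences were -0.08 ± 0.18 and 0.03 ± 0.21, and Col27a1, the remaining fibrillar chain, was at -0.05 ± 0.21. Col5a1 turned to 0.13 without MOTS-c replicate 3.

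Basement membrane chains overlapped between the groups. Col4a1 and Col4a2 assemble into the main network of every basement membrane, and their RefSeq starts lie 21 bases apart on opposite strands of chromosome 8. Col4a1 was 7.14 and 6.77 with the scrambled peptide and 6.93 and 6.66 with MOTS-c. Col4a2 was 7.99 and 7.82 against 8.09 and 7.62. On both chains MOTS-c replicate 3 was the lowest array, and the differences were -0.16 ± 0.19 (adjusted p = 0.879 in limma) and -0.05 ± 0.20 (adjusted p = 0.973). Without scrambled replicate 1 both were just above 0, at 0.02 and 0.04, and Col4a2 was at 0.19 without MOTS-c replicate 3.

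Col18a1, the heparan sulfate collagen of vascular and epithelial basement membranes, was 9.71 and 10.13 with the scrambled peptide and 9.78 and 9.32 with MOTS-c. MOTS-c replicate 2 lay between the 2 scrambled arrays, so the groups overlapped. The difference was -0.37 ± 0.24 with an adjusted p of 0.766 in limma. It was -0.16 without scrambled replicate 2 and -0.14 without MOTS-c replicate 3, and -0.59 and -0.60 without scrambled replicate 1 and MOTS-c replicate 2. Col7a1, which anchors epithelium to stroma, overlapped too at -0.18 ± 0.15.

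**Figure D3:**
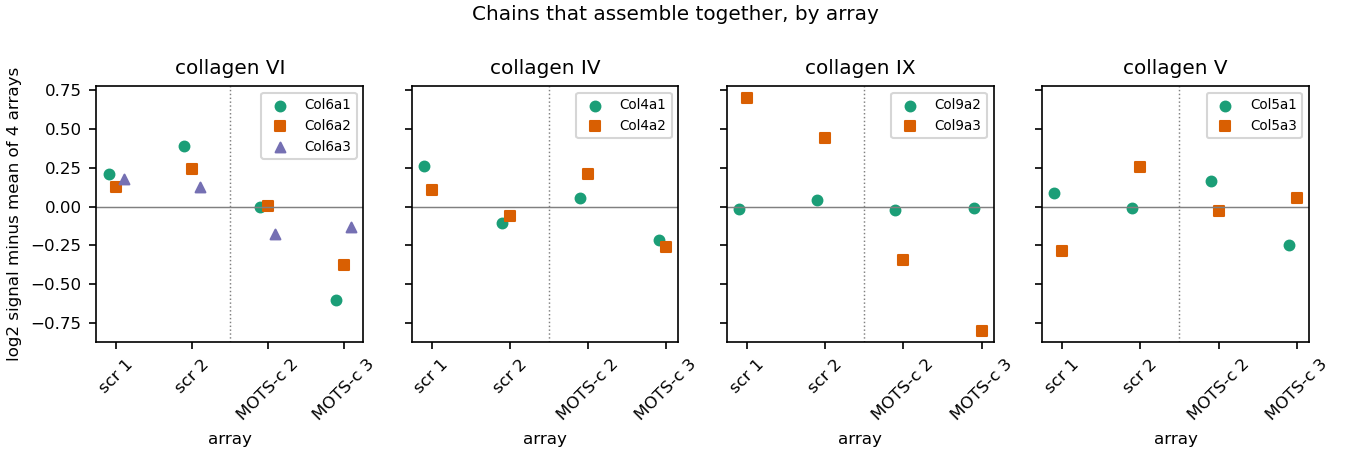
Log2 normalized signal less the chain's mean over the 4 arrays (vertical axis) for chains that assemble together, by array (scr, scrambled); the dotted line parts the groups. The 3 collagen VI chains are lower on both MOTS-c arrays, the collagen IV and V chains overlap between groups, and in collagen IX Col9a3 is lower while Col9a2 stays within 0.1 of its mean.

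The remaining chains are less well known in the islet. Of the transmembrane collagens, Col25a1 lay lower on both MOTS-c arrays at -0.41 ± 0.18, and Col17a1, a hemidesmosome component, overlapped at -0.42 ± 0.41. Further probes of these 2 genes were also tested. That of Col17a1 was 4.89 and 5.50 with the scrambled peptide and 4.86 and 3.09 with MOTS-c (-1.22 ± 0.63, unadjusted p = 0.114 in limma), and it was not above background on MOTS-c replicate 3. That of Col25a1 was at 0.15 ± 0.20 and overlapped, so the 2 probes of Col25a1 differed in sign. Col17a1 turned to 0.13 without scrambled replicate 1 and passed both limits at -0.97 without scrambled replicate 2. Col25a1 passed both limits at -0.60 without MOTS-c replicate 2 and was at -0.21 without MOTS-c replicate 3. Col8a2, of the short chain network under corneal and vascular endothelium, and Col26a1 overlapped at -0.23 ± 0.22 and -0.04 ± 0.27. The other 20 further probes of collagen genes were below the filter.

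**Figure D4:**
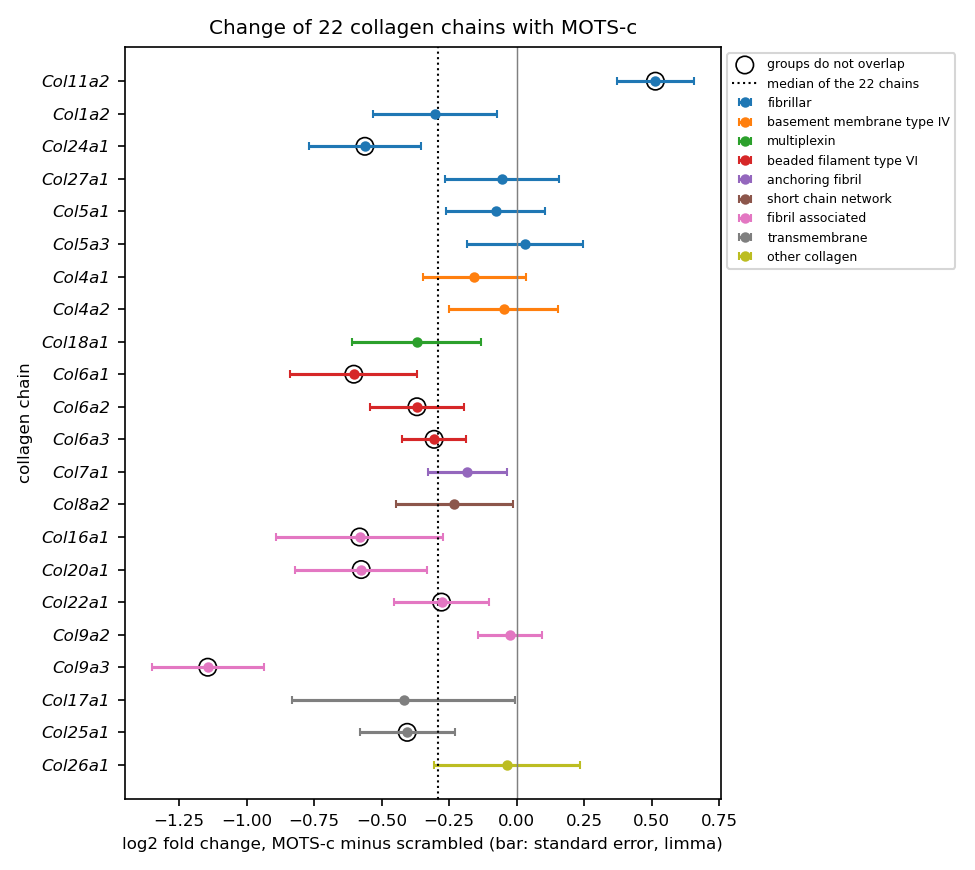
Log2 fold change (MOTS-c minus scrambled) of the 22 tested collagen chains, colored by class, with bars of 1 standard error from limma; circles mark chains whose groups do not overlap. The dotted line is the median of the 22 chains (-0.29); 20 chains lie left of 0, Col9a3 is lowest at -1.14 and Col11a2 highest at 0.51.

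Genes that make, export, modify and bind collagen were listed beside the chains in 8 lists. Those that process the chains inside the cell did not share their direction. Of 19 genes of chain hydroxylation, glycosylation and folding, 15 were tested, 0 passed both limits in either direction, and the median log2 difference was 0.02. The brightest of the list, the disulfide isomerase and hydroxylase subunit P4hb and the cyclophilin Ppib, were at -0.00 ± 0.12 and 0.09 ± 0.12. Serpinh1, the collagen chaperone of the endoplasmic reticulum, was not above background on any array.

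All 10 genes of procollagen export were tested, 0 passed both limits, and the median was -0.00. The coat GTPase Sar1a was at -0.05 ± 0.13, and Mia3, the receptor that loads procollagen into large carriers, was at 0.46 ± 0.21. Of 8 genes that remove propeptides, 6 were tested, 0 passed both limits, and the median was -0.07. The procollagen proteinase Bmp1 was at -0.13 ± 0.16 and its enhancer Pcolce at -0.34 ± 0.28. Adamts2, a further proteinase named here after its values were seen, was above background only on the 2 MOTS-c arrays, at a mean of 4.86 against 3.32. Against the lowest signal well above background on each scrambled array, it was at least 1.75-fold higher with MOTS-c, with an adjusted p of 0.648 in limma. It passed the filter only through the group where it is brighter, so these values are a description and support no difference.

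Of 7 crosslinking genes, 4 were tested, 0 passed both limits, and the median was -0.40 with all 4 differences below 0. The groups overlapped for 3 of them. The exception was the transglutaminase Tgm2 at -0.64 ± 0.26, and the dim lysyl oxidase Loxl1, above background on 2 arrays, was at -1.03 ± 0.69 (both named here after their values were seen). The peroxidasin Pxdn, which crosslinks collagen IV, was at -0.15 ± 0.16 and the lysyl oxidase Loxl2, highest on MOTS-c replicate 3, at -0.09 ± 0.22. Lox was not above background on any array. With only probes above background on all arrays, this median was -0.15, and without scrambled replicate 1 it was -0.16.

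Of 11 collagen receptors and uptake genes, 9 were tested, and the median was 0.03. Of these, 1 was called lower and 0 higher, beside 3.01% and 0.995% of the brightest probes of genes. The called gene was Adgrg1, an adhesion receptor that binds collagen III, at 11.35 and 11.16 with the scrambled peptide and 10.31 and 10.45 with MOTS-c. Its difference was -0.88 ± 0.14, with an adjusted p of 0.474 in limma. The receptor kinase Ddr1 was at -0.48 ± 0.16, and Itgb1, the shared chain of the collagen integrins, was at 0.04 ± 0.12. The median of the list was below 0 without any 1 of the 4 arrays, from -0.13 to -0.07.

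Of 11 collagenases, gelatinases and their inhibitors, 5 were tested, and the median was -0.24. Of these, 1 was called lower and 0 higher, beside 3.01% and 0.995% of the brightest probes of genes. Mmp2, Mmp9, Mmp13 and Mmp14 were not above background on any array. The called gene was Fap, a serine protease of activated fibroblasts, which was above background only on the 2 scrambled arrays, at a mean of 4.39 against 3.56. It was at least 1.59-fold lower with MOTS-c by the same bound, with an adjusted p of 0.474 in limma. Fap too passed the filter only through the group where it is brighter, so its call and its part in the list's count and median support no difference. The inhibitors Timp2 and Timp3 were at -0.02 ± 0.16 and -0.79 ± 0.32. The median was -0.01 with no filter on dim probes and -0.13 with probes above background on all arrays.

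Of 15 other basement membrane genes, 11 were tested, and the median was -0.01. Of these, 1 was called lower and 0 higher, beside 3.01% and 0.995% of the brightest probes of genes. The called gene was the laminin chain Lamb1, at 9.92 and 9.61 with the scrambled peptide and 8.98 and 9.21 with MOTS-c. Its difference was -0.67 ± 0.17 with an adjusted p of 0.534 in limma. Agrn, the agrin proteoglycan, and the laminin chain Lamc1 were at 0.26 ± 0.16 and 0.24 ± 0.12. The list's median was -0.31 without MOTS-c replicate 2, 0.15 with no filter and -0.15 with probes above background on all arrays. Lamc3, named here after its values were seen, was above background only on the 2 MOTS-c arrays, at a mean of 4.04 against 3.67. It passed the filter only through the group where its mean is higher, so its part in the list's count and median supports no difference.

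Of 14 fibril regulators and interstitial matrix genes, 6 were tested, 0 passed both limits, and the median was 0.07. Thbs1 was at 0.26 ± 0.19 and the proteoglycan Vcan at 0.05 ± 0.14. The fibril regulators Dcn and Lum and the matrix genes Fn1, Postn, Fbn1 and Eln were not above background on any array. These are genes that fibroblasts typically express together with Col1a1 and Col3a1, which were not above background either.

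**Figure D5:**
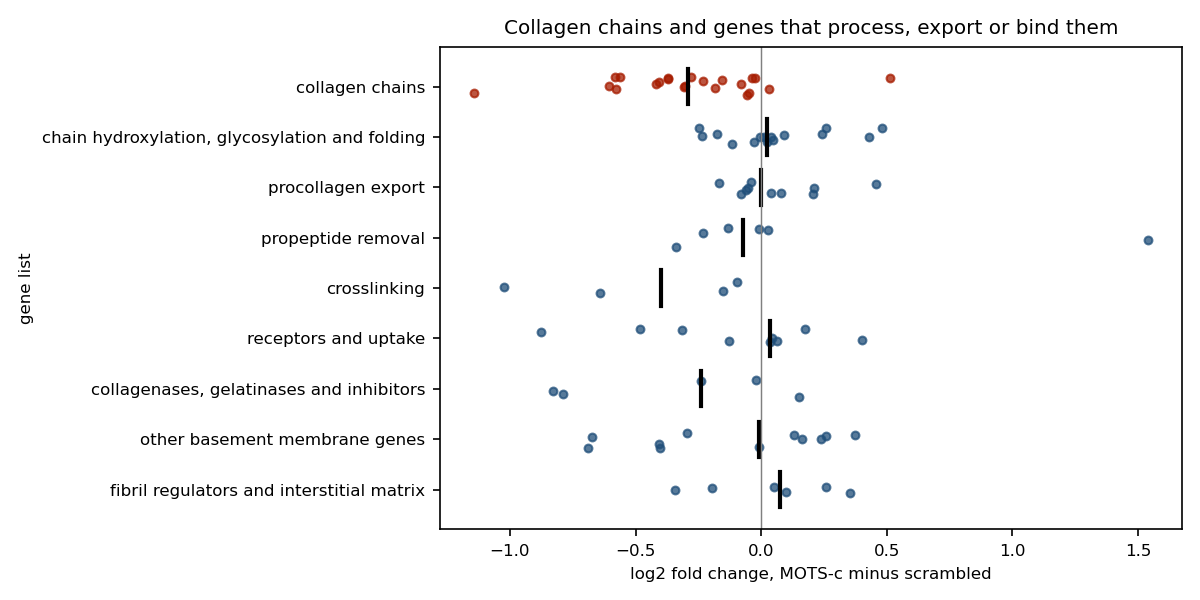
Log2 fold change (MOTS-c minus scrambled, horizontal axis) of the tested collagen chains (red) and of the tested genes in 8 lists of genes that make, export, process or bind collagen (blue), 1 point per gene. Vertical bars are medians: -0.29 for the chains, -0.40 for crosslinking, -0.24 for collagenases and inhibitors, and between -0.07 and 0.07 for the other lists.

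Marker genes of the cell types that make or border collagen were read from the same fit. In that fit 3.01% of the brightest probes of genes were called lower and 0.995% higher. In RNA from a whole cell suspension, fewer cells of a type and less RNA per cell cannot be told apart. Of 13 mesenchymal and stellate cell markers 5 were tested, with a median log2 difference of -0.14. Pdgfrb, Rgs5, Des, Dcn, Lum, Dpt, Cspg4 and Pdpn were not above background on any array. Pdgfra, a receptor of fibroblasts, was called lower at -1.05 ± 0.33 (adjusted p = 0.567 in limma), and Acta2 and Thy1 were at -0.14 ± 0.13 and -0.10 ± 0.24. Vim and Prrx1, named here after their values were seen, overlapped at -0.32 ± 0.35 and 0.14 ± 0.20. The summed normalized signal of the 5 tested markers was 5728 and 5191 with the scrambled peptide and 4935 and 4924 with MOTS-c. This sum follows Acta2, by far the brightest of the 5. The sum of the 22 collagen chains was 8783 and 9206 against 7728 and 6825.

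Schwann cell markers, of which 4 of 8 were tested, had a median of -0.37. Ngfr was called lower at -0.70 ± 0.23 (adjusted p = 0.571 in limma), while Cdh19 and S100b were not above background on any array. Their summed signal was 7609 and 7462 with the scrambled peptide and 5679 and 3907 with MOTS-c. The sum follows Ngfr, by far the brightest of the 4. Gfap, named here after its values were seen, went the other way, at 5.15 and 4.90 with the scrambled peptide and 5.23 and 5.78 with MOTS-c (0.48 ± 0.23, adjusted p = 0.700 in limma). Col6a1, Col6a2 and Col6a3 also had their scrambled arrays above their MOTS-c arrays, and the part of either marker list in the collagen differences was not tested.

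Endothelial markers, 4 tested of 10, had a median of 0.04, with Egfl7 and Plvap at 0.07 ± 0.13 and 0.01 ± 0.20. Cdh5, Kdr, Tie1, Tek and Cldn5 were not above background on any array. The summed signal was 6093 and 7038 with the scrambled peptide and 7041 and 6347 with MOTS-c, so this sum overlapped between groups. Col4a1, Col4a2 and Col18a1 overlapped too, where only 19.4% of all probes were higher and 18.6% lower without overlap. The part of the endothelial markers in the values of these chains was not tested. The sum follows Egfl7 and Plvap, the 2 brightest of the 4. Esam, named here after its values were seen, was 8.53 and 8.54 with the scrambled peptide and 8.23 and 7.99 with MOTS-c. Its difference was -0.43 ± 0.14 without overlap (adjusted p = 0.578 in limma), while the other 3 differences were above 0.

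Macrophage markers, 5 tested of 10, had a median of -0.20, with C1qa called lower at -0.67 ± 0.20 (adjusted p = 0.548 in limma) and Csf1r at -0.21 ± 0.29. Cd68 and C1qb overlapped, at 0.16 ± 0.22 and -0.20 ± 0.20. Cd14, above background only on the 2 MOTS-c arrays, was at a mean of 4.49 against 3.98. These 3 were named here after their values were seen. Cd14 passed the filter only through the group where it is brighter, so its values and its part in the list's median support no difference. Ptprc, Adgre1, Lyz2 and Mrc1 were not above background on any array. The summed signal was 4116 and 5388 against 4231 and 3524. Of 11 acinar markers 4 were tested, with a median of -0.28 and with Cela1 called lower at -0.76 ± 0.16 (adjusted p = 0.499 in limma) and Cel at -0.14 ± 0.18. The acinar sum was 3663 and 4010 against 2590 and 2093, and it follows Cela1, by far the brightest of the 4. Ctrb1, named here after its values were seen, was higher on both MOTS-c arrays at 0.33 ± 0.17. Ductal markers, 5 tested of 8, had a median of -0.04, with Spp1 at -0.00 ± 0.35 and Krt7 at -0.39 ± 0.36.

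Endocrine markers were not lower as lists. Of 8 beta cell markers 7 were tested, with a median of -0.04 and with Ins2 and Ins1 at -0.05 ± 0.12 and -0.04 ± 0.12. The list's median is the value of Ins1. Quantile normalization sets such bright probes by rank, which limits what their differences can show. Ins2 had the same value, 18.54, on scrambled replicate 1 and both MOTS-c arrays. Its raw signal was 8861 and 12955 times background with the scrambled peptide and 8804 and 8378 with MOTS-c. Slc2a2, the glucose transporter of the beta cell surface, was called lower at -1.33 ± 0.14 (adjusted p = 0.474 in limma). Its probe was dim, at 1.85 and 2.30 times background with the scrambled peptide and 1.31 and 1.33 with MOTS-c. On MOTS-c replicate 2 it was not well above background. Iapp, Mafa and Nkx6-1, named here after their values were seen, were higher on both MOTS-c arrays, and 3 markers were lower on both. Over all probes 19.4% and 18.6% were so ordered. Of 7 alpha, delta and PP cell markers 6 were tested, with a median of 0.22, with Sst at -0.28 ± 0.22 and Gcg at 0.11 ± 0.12, and with Irx2 called higher at 0.68 ± 0.16 (adjusted p = 0.519 in limma).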

How the data were processed

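RNA of 4 samples of islet cells was labeled with Cy3 and hybridized to Agilent SurePrint G3 Mouse 8x60K arrays. Feature Extraction was used by the authors to read the spots. The deposited intensity values carry its background correction and no normalization across arrays. The authors also deposited these intensities in rounded form, used here as an alternative.

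Control spots (3671 per array) and outlier spots (96 to 131) were left out, the deposited values were taken to log2 and averaged per probe. Quantile normalization was applied to probes that 2 or more of the 4 arrays showed well above background. The authors' methods also drop probes with a Flag A that they do not define. limma (version 3.58.1, R 4.3.3) compared MOTS-c with scrambled over 35087 probes, with 2 residual and 2.64 prior degrees of freedom and Benjamini-Hochberg adjustment over all of them. A call means an unadjusted p under 0.05 with at least 1.5-fold change. Errors are standard errors from limma. Exact permutation of 2 against 2 arrays cannot give a p below 0.333. The number of arrays limits the precision.

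Symbols came from the RefSeq table of GRCm38.p6 for 32994 probes named by accession, and promoter windows from the same build. The collagen chains, gene lists and naming rule were chosen with earlier results of these data known. All chains are accounted for, and values on every array are given for chains at an unadjusted p under 0.05, at 1.5-fold or of collagens I, III, IV, V, VI, XV and XVIII, and for chains that assemble together. In the other lists, called genes and the 2 brightest probes are named. A few list genes that this rule would name are not reported here. For a gene not well above background on a whole group, a fold is a lower bound. It sets the brighter group's mean against the mean, over the dim arrays, of the higher of the dim probe's signal and the lowest signal well above background. The methods' t-test, a trended prior, other normalizations, filters and probe choices, and leaving out each array were alternatives.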

Additional observations from a re-analysis of the deposited data

How the results depend on the processing

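The count of collagen chains at an unadjusted p under 0.05 and 1.5-fold (1) became 2 with a 75th percentile shift and with all probes of a gene averaged, 0 with the normexp background correction and 3 with no filter on dim probes, and it ranged from 2 to 5 when each array was left out. The unfiltered count included Col2a1 and Col9a1, which the filter on dim probes leaves out. The methods' t-test, a trended prior, the stricter filter and the authors' rounded values also gave 1. No chain reached an adjusted p under 0.05 in limma in any setting, or in the methods' t-test, which gave 2 chains at an unadjusted p under 0.05. Chains lower on both MOTS-c arrays numbered 9 to 13 in the other settings and 11 to 16 when an array was left out. With no filter on dim probes they were 13 of 44 tested chains, beside 20.7% of all probes. Chains higher on both numbered 2 of 44 with no filter, beside 17.3% of all probes, and 1 to 3 when an array was left out. The median log2 difference of the chains was below 0 in all settings, from -0.30 to -0.17, and from -0.34 to -0.16 when an array was left out. Without each array in turn, the list medians ranged from -0.032 to 0.087 for folding, -0.093 to 0.070 for export, -0.58 to -0.16 for crosslinking, -0.13 to -0.070 for receptors, -0.36 to -0.14 for collagenases and -0.31 to 0.10 for other basement membrane genes. With no filter on dim probes the median was -0.01 for collagenases and 0.15 for other basement membrane genes. With probes above background on all arrays it was -0.15 for crosslinking, -0.13 for collagenases and -0.15 for other basement membrane genes.

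Among single chains, 235 recomputed differences kept direction and call, 11 became calls, 1 (Col9a3 with normexp, -0.40) lost it and 16 changed sign, none of them a call in either setting. With normexp, Col27a1 was at 0.055, Col5a3 at -0.12 and Col4a2 at 0.0049. The other changes of sign came when 1 array was left out. The range was then -0.28 to 0.17 for Col27a1, -0.28 to 0.13 for Col5a1, -0.24 to 0.29 for Col5a3, -0.34 to 0.024 for Col4a1, -0.28 to 0.19 for Col4a2, -0.51 to 0.047 for Col8a2, -0.054 to 0.0026 for Col9a2, -0.97 to 0.13 for Col17a1 and -0.39 to 0.32 for Col26a1. The normexp setting adds an offset of 50 intensity units, which shrinks the differences of dim probes by construction. For the other changes the cause was not tested. Where an array was left out, the lone array of its group was assumed to vary like the other group, and the remaining arrays were normalized anew. No paired analysis was possible because the groups share only replicate number 2. Signal close to background limits the precision for the dimmest chains.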
